A study of Mus musculus with 3 samples.

Results

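The MHC class II genes and their partners are 8 genes, H2-Aa, H2-Ab1, H2-Eb1, H2-Ea-ps, Cd74, Ciita, H2-DMa and H2-DMb1, taken by their gene symbols from the 55450 genes counted in single cells of mouse pancreas. They were chosen by measured levels in these same libraries, above all by a higher level in endothelial cells of the diabetic sedentary library than of the library labelled none, so that comparison is given as a description. The study compared 3 groups, with 1 library each. The diabetic exercise library came from male db/db mice, whose leptin receptor is defective and which develop obesity and diabetes, with treadmill training begun at an age of 6 weeks. The diabetic sedentary library is labelled diabetic and sedentary. The series text names only male db/db mice of 6 weeks, the trained ones, and gives the untrained diabetic mice no age of their own. For the library labelled none, the labels state sedentary mice and give neither genotype nor strain nor age. How many mice were pooled is not stated for any library, and the strain of the db/db mice is not given either. With 1 library per group no test between groups was possible, and every interval below is a 95% interval that covers counting error only.

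MHC class II molecules carry peptides from engulfed proteins to the cell surface, where CD4+ T cells read them. H2-Aa and H2-Ab1 encode the alpha and beta chains of I-A, and H2-Ea (H2-Ea-ps in the annotation) and H2-Eb1 encode the alpha and beta chains of I-E. Cd74 encodes the invariant chain, which occupies the groove until H2-DM, made from H2-DMa and H2-DMb1, exchanges its last fragment for a peptide. Ciita encodes the transactivator that switches the genes on, constitutively in dendritic cells and B cells, and under interferon gamma in macrophages, endothelial cells and epithelial cells. Mice of the H2 b haplotype, such as C57BL/6, make no Ea transcript because the promoter and first exon of the gene are deleted. Mice of haplotypes such as d and k transcribe it and carry I-E on their cells. A transcript of H2-Ea-ps is for that reason a sign of strain background.

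Together on chromosome 17 lie the chain genes and the H2-DM genes, 6 of the 8 members, in the GENCODE M21 annotation of GRCm38, to which all 55450 identifiers and symbols match. H2-DMa (chr17:34119541-34139101) and H2-DMb1 (chr17:34153072-34160230) are on the plus strand, as are H2-Ab1 (chr17:34257689-34269419) and H2-Eb1 (chr17:34305867-34316674). H2-Aa (chr17:34282744-34287823) and H2-Ea-ps (chr17:34341959-34344645, annotated as a polymorphic pseudogene) are on the minus strand. The promoters of class II genes are known for an X box and a Y box, bound by RFX and NF-Y, on which the transactivator acts. RefSeq promoter windows (GRCm38.p6) were found for 4 of the 8 members. Those of H2-Eb1 and H2-DMb1 are shown because they hold both boxes, through which these genes are known to be switched on together. The window of H2-Aa is shown for its Y box core alone. Capitals mark the Y box core TGATTGG and the X box pattern (GNAAC, then 3 free bases, then TGA), and each window is read on its gene's own strand. The H2-Aa window (chr17:34287774-34288073) has the Y box 50 bases before the gene start. The H2-Eb1 window (chr17:34305617-34305916) has the X box pattern 91 and the Y box 61 bases before it. In the H2-DMb1 window (chr17:34152941-34153240) these distances are 94 and 63 bases, counted from the RefSeq start. That start lies downstream of the GENCODE start given above, so both motifs lie inside the GENCODE gene. The last sequence is the first annotated exon of H2-Ea-ps (chr17:34344398-34344644, minus strand), shown because the reference strain's annotation lacks the deleted part. This exon gives 247 of the 687 transcript bases and does not begin with ATG.
H2-Aa: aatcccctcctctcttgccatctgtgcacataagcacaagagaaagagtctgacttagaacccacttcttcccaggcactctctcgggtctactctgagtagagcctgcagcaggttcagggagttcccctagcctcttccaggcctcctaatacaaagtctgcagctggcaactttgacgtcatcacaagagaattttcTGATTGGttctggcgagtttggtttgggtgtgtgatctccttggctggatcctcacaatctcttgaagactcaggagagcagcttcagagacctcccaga
H2-Eb1: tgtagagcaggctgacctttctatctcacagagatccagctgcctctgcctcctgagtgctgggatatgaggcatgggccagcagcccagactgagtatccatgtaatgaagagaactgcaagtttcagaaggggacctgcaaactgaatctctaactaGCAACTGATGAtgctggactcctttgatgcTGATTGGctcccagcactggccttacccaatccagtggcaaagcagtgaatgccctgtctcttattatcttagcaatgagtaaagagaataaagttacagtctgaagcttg
H2-DMb1: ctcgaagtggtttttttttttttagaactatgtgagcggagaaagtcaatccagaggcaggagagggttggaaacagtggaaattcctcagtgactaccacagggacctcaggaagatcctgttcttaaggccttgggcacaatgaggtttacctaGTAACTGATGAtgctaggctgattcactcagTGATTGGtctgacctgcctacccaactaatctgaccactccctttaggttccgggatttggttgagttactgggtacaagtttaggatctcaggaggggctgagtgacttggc
H2-Ea-ps: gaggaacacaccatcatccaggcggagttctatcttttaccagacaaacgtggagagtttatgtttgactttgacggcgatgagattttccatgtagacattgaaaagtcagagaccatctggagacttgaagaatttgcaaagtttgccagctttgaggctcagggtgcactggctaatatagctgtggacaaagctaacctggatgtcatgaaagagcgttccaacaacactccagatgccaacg

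On either strand, TGATTGG occurred in 7.82% of 32851 promoter windows of this length, the X box pattern in 3.17% and both in 0.298%. The windows of H2-Eb1 and H2-DMb1 hold both motifs and that of H2-Aa the Y box alone. Neither pattern was found in the 2 windows of H2-DMa, and a window without these letters says nothing of the factors that bind there.

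The libraries differed in depth and in acinar RNA. They held 45209034 UMIs (unique transcript counts) in 18433 barcodes for diabetic exercise, 80185752 in 12743 for diabetic sedentary and 54128454 in 9958 for none, with medians of 1887, 4640 and 3952 UMIs per barcode in that order. After filtering, 15069, 11020 and 8711 cells were kept. Unnamed clusters dominated by acinar RNA held 75.3% of kept cells in diabetic exercise, 34.5% in diabetic sedentary and 11.4% in none. Between 32 and 61 barcode sequences were shared by any pair of libraries. Cell classes were named from markers, without class II genes in the clustering, and are called macrophage-like and so on. No cluster met the naming rule for dendritic cells.

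Every member had UMIs in each library. Over all barcodes, Cd74 had 10248 UMIs in diabetic exercise, 12812 in diabetic sedentary and 24253 in none. H2-Aa had 4710, 5260 and 8195 UMIs in the same order, and Ciita, with the lowest count of the 8 in every library, had 67, 68 and 131. The 7 members other than H2-Ea-ps were summed and are called summed class II, and levels are given as CPM, the UMIs of a gene scaled to a common total for each class and library. Macrophage-like cells held most of it in each library, 84.3% in diabetic exercise, 90.0% in diabetic sedentary and 71.8% in none, although they made up 1.45%, 2.14% and 3.91% of kept cells. B-like cells held 1.94% of it in diabetic exercise and 0.348% in diabetic sedentary, against 21.3% in none. Acinar-like and acinar-RNA-rich cells held 9.03%, 5.27% and 5.70%.

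**Figure D1:**
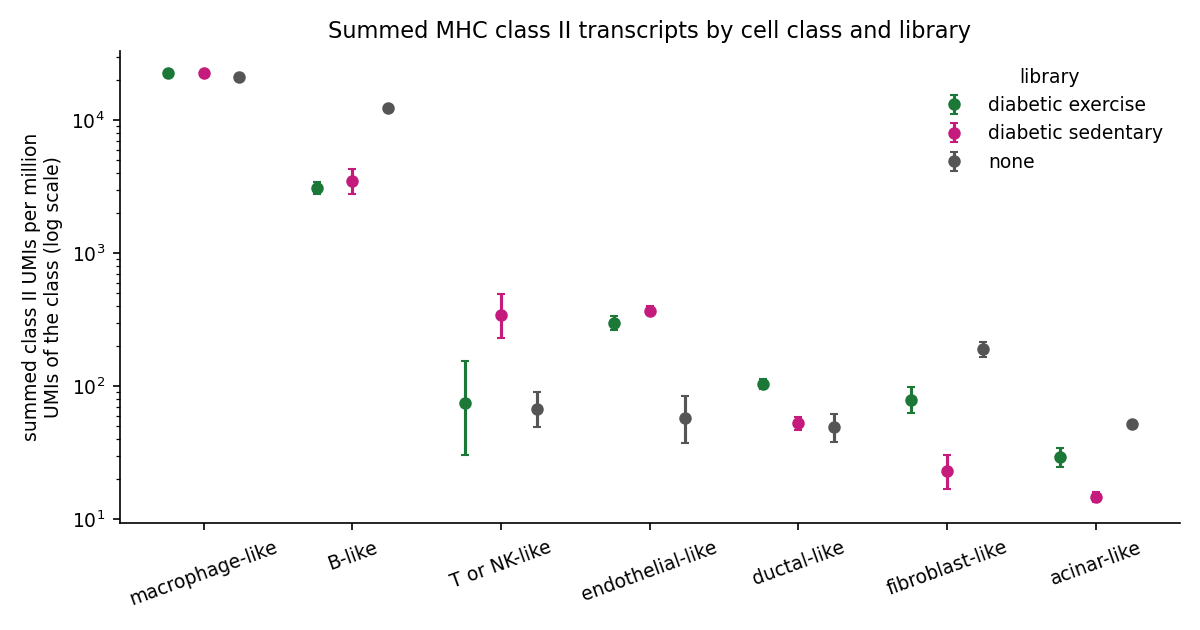
Summed class II level in CPM on plain class totals (vertical log axis) in 7 cell classes (horizontal axis), with points for the diabetic exercise, diabetic sedentary and none libraries and exact Poisson 95% intervals. Macrophage-like cells lie at 22407, 22586 and 21215 CPM, B-like cells of none at 12367 CPM, and endothelial-like cells of both diabetic libraries above those of none.

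H2-Ea-ps, the alpha chain gene that H2 b mice do not transcribe, was present in every library and in step with its partner H2-Eb1. It had 2843 UMIs in diabetic exercise, 3645 in diabetic sedentary and 6210 in none over all barcodes. In kept cells there were 103.7 H2-Ea-ps UMIs per 100 H2-Eb1 UMIs in diabetic exercise (interval 98.3 to 109), 107.8 in diabetic sedentary (103 to 113) and 126 in none (121 to 131). The intervals of the diabetic libraries overlap each other, and that of none lies above both. Macrophage-like cells alone gave 104, 108 and 127, and the B-like cells of none gave 127 (116 to 140). Barcode by barcode, H2-Ea-ps was seen in 90 of 90 barcodes with at least 5 H2-Eb1 UMIs in diabetic exercise, 107 of 107 in diabetic sedentary and 239 of 241 in none. The median ratio over those barcodes was 0.974, 1.03 and 1.14. H2-Eb1 without H2-Ea-ps, the pattern of mice with the deletion, was seen in 0 of the 3 libraries. The counts hold no alleles, so which haplotype each library carries was not tested.

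**Figure D2:**
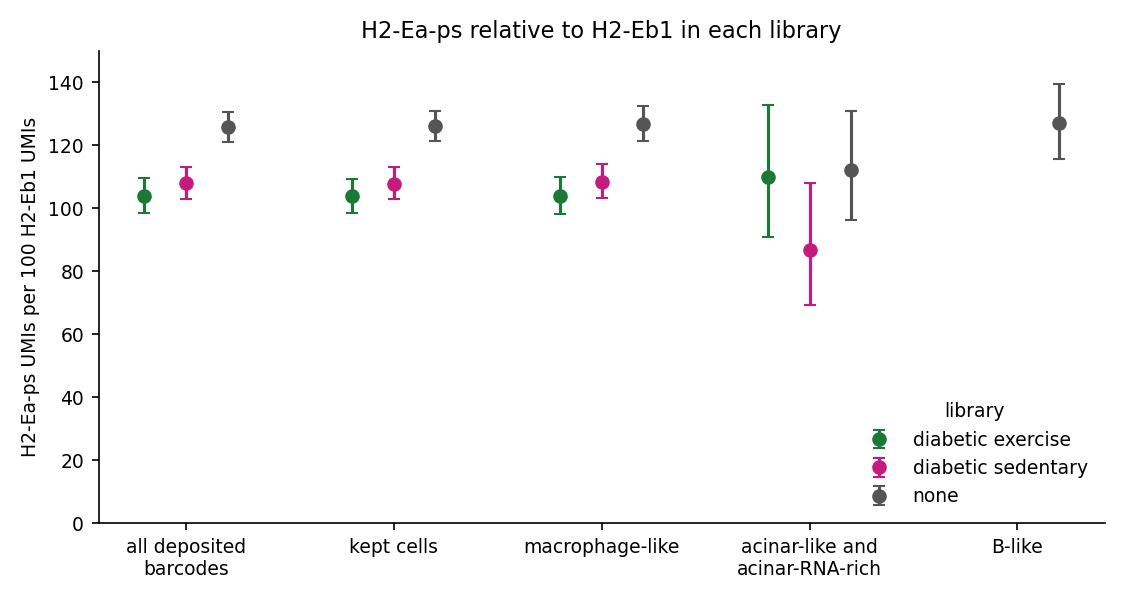
H2-Ea-ps UMIs per 100 H2-Eb1 UMIs (vertical axis, from 0) in sets of barcodes (horizontal axis) for the diabetic exercise, diabetic sedentary and none libraries, with exact 95% counting intervals. The diabetic libraries sit at 103.7 and 107.8 in kept cells and none at 126; B-like cells are drawn for none alone, since the diabetic libraries had 13 and 12 H2-Ea-ps UMIs there.

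Other genes were searched for a strain sign outside acinar clusters. Those counted had at least 50 UMIs in each diabetic library and a level in none under 0.05 times that of both, or the reverse. There were 20 such genes of 10747 eligible in the first direction and 16 of 8265 in the second, and none of them lay in the stretch of chromosome 17 that holds the class II genes. The first group was led by Gcg, Ppy, Gm5771, Prss1 and Onecut2, and its chromosome 17 gene was Pgc (171, 125 and 0 UMIs). The second was led by Glycam1, Cd79a, Cd3d, Ms4a1 and Ighd, with 5830444F18Rik on chromosome 17 (5, 5 and 87 UMIs), and 8 of its 16 genes had over 50% of their UMIs in B-like cells. Glucagon, pancreatic polypeptide and lymphocyte genes lead these groups, so cell numbers and strain cannot be told apart in them. Nnt, deleted in part in C57BL/6J, had 36, 52 and 54 UMIs over all barcodes, and outside acinar clusters 23, 14 and 3 UMIs (2.50, 1.17 and 0.464 CPM). Another annotated Nnt entry spans nearly the same stretch and had 0 UMIs in each library. How reads fell between these entries was not tested, so no strain sign is read from Nnt. Glo1, duplicated in some inbred strains, stood at 309, 280 and 162 CPM outside acinar clusters in diabetic exercise, diabetic sedentary and none.

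In macrophage-like cells, the main class II cells of these libraries, no member differed by 2-fold between libraries. Summed class II stood at 19836 CPM in 219 cells of diabetic exercise, 21101 CPM in 236 cells of diabetic sedentary and 25651 CPM in 341 cells of none, on class totals scaled by trimmed mean of M values (TMM). Diabetic sedentary over none was 0.823 (interval 0.808 to 0.837) on that scale and 1.06 (1.05 to 1.08) on plain totals, which stood at 22407, 22586 and 21215 CPM. The direction of the summed level thus turns with the scaling. Diabetic exercise over diabetic sedentary was 0.940 (0.922 to 0.959), and 0.992 on plain totals. TMM-scaled and plain values differ most for none, and the cause was not tested.

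Members did not keep 1 proportion. Cd74 was 9517 CPM in diabetic exercise, 10746 in diabetic sedentary and 14199 in none, with ratios of 0.886 (0.861 to 0.911) for diabetic exercise over diabetic sedentary and 0.757 (0.739 to 0.775) for diabetic sedentary over none. H2-Aa was 4568, 4390 and 4949 CPM, with a ratio of 0.887 (0.853 to 0.922) for diabetic sedentary over none. Within a library, where scaling cancels, there were 48.0 H2-Aa UMIs per 100 Cd74 UMIs in diabetic exercise (46.2 to 49.8), 40.9 in diabetic sedentary (39.5 to 42.3) and 34.9 in none (33.8 to 35.9), 3 intervals that do not overlap. The other I-A chain, H2-Ab1, was 2399, 2483 and 2709 CPM and kept 52.5, 56.6 and 54.7 UMIs per 100 of H2-Aa. For the I-E chains, H2-Eb1 was 2699, 2874 and 3120 CPM and H2-Ea-ps 2802, 3117 and 3955 CPM. On plain totals H2-Ea-ps was 3165, 3337 and 3271 CPM, so that diabetic sedentary turned to higher than none. On plain totals Cd74 stayed lowest in diabetic exercise and highest in none (10751, 11502 and 11743 CPM), while H2-Aa (5160, 4699 and 4094 CPM), H2-Ab1 and H2-Eb1 turned to higher in both diabetic libraries than in none.

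The transactivator and the peptide exchange genes were sparser. Ciita was 58.5 CPM in diabetic exercise (51 UMIs), 55.3 in diabetic sedentary (59 UMIs) and 53.0 in none (61 UMIs), with ratios near 1 and intervals on both sides of it. H2-DMa was 396, 326 and 430 CPM, with ratios of 1.21 (1.04 to 1.41) for diabetic exercise over diabetic sedentary and 0.759 (0.660 to 0.872) for diabetic sedentary over none. H2-DMb1 was 200, 227 and 191 CPM (174, 242 and 220 UMIs). Its near-identical neighbour H2-DMb2 may take or give reads, so H2-DMb1 is uncertain. Of the 8 members, 0 passed 2-fold in either direction. Among all measured genes, 4.45% were 2-fold higher and 4.28% lower in diabetic sedentary over none, and 3.76% higher and 3.61% lower in diabetic exercise over diabetic sedentary. The median log2 ratio of the members was -0.15 for diabetic sedentary over none and -0.07 for diabetic exercise over diabetic sedentary, beside -0.01 over all genes in both. Summed class II was seen in 78.5% of macrophage-like cells in diabetic exercise, 81.4% in diabetic sedentary and 91.5% in none, and in 75.8%, 77.8% and 85.2% once each cell was thinned to 1000 UMIs. In T or NK-like cells, which should lack these genes in mice, the thinned shares were 9.38%, 19.0% and 5.88%.

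The macrophage-like cells, sub-clustered together with the monocyte or neutrophil-like cells, split into groups that the libraries filled unequally. Sub-cluster 4, led by Ear2, Mmp12 and Ccl17, had the highest summed class II in all libraries, at 36136 CPM in 39 cells of diabetic exercise, 33792 CPM in 37 cells of diabetic sedentary and 35850 CPM in 35 cells of none. It also had 348, 424 and 436 CPM of the dendritic genes Flt3, Xcr1, Clec9a, Cd209a and Ccr7, beside 4486, 3824 and 1177 CPM of the C1q genes of macrophages. Its H2-DMa was 808, 652 and 882 CPM and its Cd74 17560, 16207 and 19293 CPM. Sub-cluster 3 (Gpnmb, Ccl12, Adgre1) held 50 and 69 cells of the diabetic libraries and 3 of none, with 27823, 31024 and 4749 CPM. The reverse held for sub-cluster 1 (Mmp13, Lilra5, Cd83), which had 6, 9 and 128 cells and 18784, 19156 and 32011 CPM. Sub-cluster 2, led by Fcna, Folr2 and Lyve1, genes of resident macrophages, had 7381 CPM in 18 cells of diabetic exercise, 6334 CPM in 17 cells of diabetic sedentary and 6680 CPM in 104 cells of none. Sub-clusters 1 and 3 come mostly from 1 side of the comparison, so cell type and library cannot be told apart in them. The acinar-RNA-rich sub-cluster held 90, 88 and 2 cells, with 5643, 4487 and 5745 CPM. Sub-cluster 5, named acinar and led by Tff2 and Amy2b, was filled the other way, with 1, 1 and 55 cells, and had 6123 CPM in none.

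**Figure D3:**
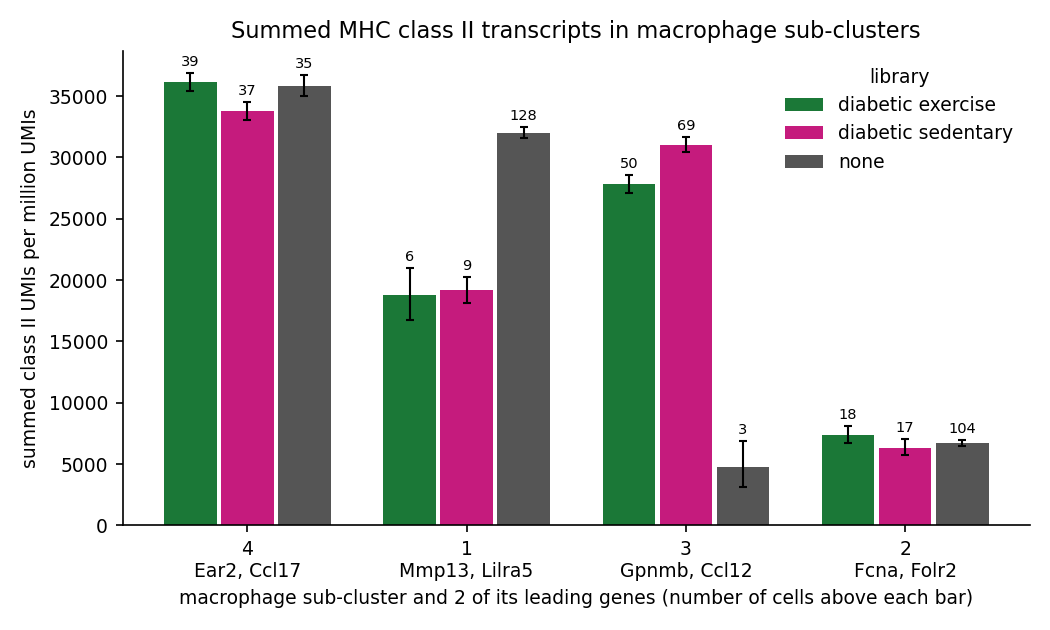
Summed class II level in CPM (vertical axis, from 0) in 4 myeloid sub-clusters (horizontal axis, with leading genes), for the diabetic exercise, diabetic sedentary and none libraries, with exact Poisson 95% intervals and the number of cells above each bar. Sub-cluster 4 stands between 33792 and 36136 in the 3 libraries, sub-cluster 2 between 6334 and 7381, and sub-clusters 1 and 3 are each filled mainly by none or by the diabetic libraries.

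Monocyte-like sub-cluster 7 had 904 CPM in 6 cells of diabetic exercise, 24391 CPM in 13 cells of diabetic sedentary and 15565 CPM in 9 cells of none. Unnamed sub-cluster 6, led by the neutrophil genes S100a8, S100a9 and Retnlg, had 2, 2 and 31 summed UMIs. A gate on at least 1 UMI of those 5 dendritic genes, set after the data were seen, took 18, 21 and 47 macrophage-like barcodes. Their summed class II was 35412 CPM in diabetic exercise, 45145 in diabetic sedentary and 23553 in none. Barcodes without them but with at least 2 C1q UMIs stood at 23073, 20045 and 22082 CPM.

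B-like cells, which present antigen to helper T cells, came mostly from none, with 10 cells in diabetic exercise and 8 in diabetic sedentary, against 228 in none (0.0664%, 0.0726% and 2.62% of kept cells). Their summed class II was 3097 CPM from 397 UMIs in diabetic exercise, 3502 CPM from 87 UMIs in diabetic sedentary and 12367 CPM from 8771 UMIs in none. In none, Cd74 was 7846 CPM, H2-Aa 2192, H2-Ea-ps 1421, H2-Eb1 1119, H2-Ab1 908, H2-DMa 168, Ciita 76.1 and H2-DMb1 56.4 CPM. The plasma cell genes Igha, Ighg1 and Jchain were among the leading genes of the cluster, and how far the libraries differ in plasma cells was not tested. Ciita stood at 3.47 UMIs per 100 of H2-Aa in these cells of none (2.60 to 4.55), against 1.07 (0.818 to 1.38) in its macrophage-like cells. H2-Aa stood at 27.9 per 100 of Cd74 there (26.4 to 29.6), below the 34.9 of the macrophage-like cells. The regulators of peptide exchange H2-Oa and H2-Ob, known for expression in B cells, had 71.4% and 74.2% of their UMIs of none in this class, and H2-DMb2 54.1%. Over all barcodes H2-Oa had 10, 5 and 73 UMIs and H2-Ob 12, 11 and 101.

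In endothelial-like cells, which line vessels and can make class II under interferon gamma, summed class II was higher in both diabetic libraries than in none once the barcodes with the highest doublet scores were left out. Summed class II was 268 CPM from 258 UMIs in 384 cells of diabetic exercise, 344 CPM from 646 UMIs in 549 cells of diabetic sedentary and 68.9 CPM from 25 UMIs in 124 cells of none. Diabetic sedentary over none, the comparison by which the genes were chosen, was 4.99 (interval 3.35 to 7.77), and diabetic exercise over none was 3.89 (2.58 to 6.12). Cd74 had 133, 263 and 12 UMIs, or 138, 140 and 33.1 CPM, with a ratio of 4.23 (2.38 to 8.30) for diabetic sedentary over none. H2-Ab1 had 46, 158 and 7 UMIs and H2-Aa 47, 126 and 1, with ratios of 4.36 (2.07 to 11.02) and 24.3 (4.29 to 968) for diabetic sedentary over none. On the I-E side, H2-Eb1 had 21, 54 and 3 UMIs (3.48, 1.13 to 17.4) and H2-Ea-ps 38, 68 and 2 (6.57, 1.75 to 55.3). H2-DMa had 7, 33 and 1 UMIs. H2-DMb1 had 4, 8 and 0 UMIs, where a count of 0 allows up to 8.27 CPM, and Ciita 0, 4 and 1. All 6 members with at least 20 UMIs over both libraries were 2-fold higher in diabetic sedentary over none, with 0 lower. Each of the 6 passed that filter through diabetic sedentary, with at most 12 UMIs in none, so this count and the members' median were partly set in advance. Of all genes measured there, 9.97% were 2-fold higher and 4.47% lower, and nothing is read from that contrast. The members' median log2 ratio was 2.07, beside 0.05 over all genes.

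Over the whole class, trained and untrained diabetic libraries were closer, though they filled its finer clusters, given below, unequally. Diabetic exercise over diabetic sedentary was 0.780 (0.672 to 0.902) for summed class II, with H2-Ab1 at 0.568 (0.400 to 0.794), H2-Aa at 0.728 (0.509 to 1.03), Cd74 at 0.987 (0.795 to 1.22) and H2-Ea-ps at 1.09 (0.713 to 1.65). Of the 6 measured members 1, H2-DMa, was 2-fold lower at 0.414 (0.155 to 0.952) and 0 were 2-fold higher, where all genes gave 4.63% lower and 4.07% higher. The median log2 ratio was -0.41 over the members and -0.08 over all genes. Gene proportions differed from those of macrophages. In diabetic sedentary there were 125 H2-Ab1 UMIs per 100 of H2-Aa in endothelial-like cells (98.6 to 160), against 56.6 (53.9 to 59.3) in macrophage-like cells of that library. H2-DMa stood at 26.2 per 100 of H2-Aa (17.3 to 38.7), against 7.43 (6.64 to 8.29).

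**Figure D4:**
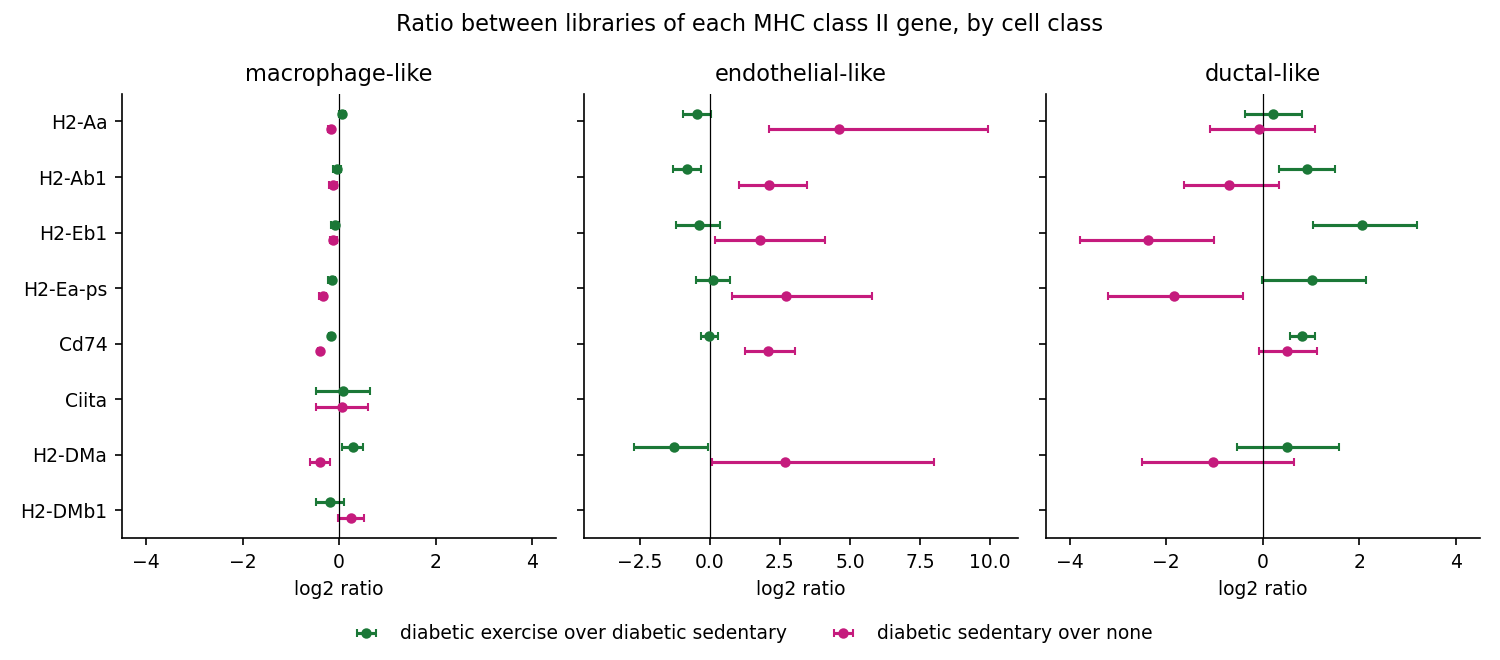
Log2 ratio (horizontal axes, wider for endothelial-like cells) of each member (vertical axis) in macrophage-like, endothelial-like and ductal-like cells for diabetic exercise over diabetic sedentary and diabetic sedentary over none, on TMM-scaled totals with exact 95% counting intervals. Members with under 20 UMIs over both libraries are left blank; the endothelial ratios of diabetic sedentary over none lie right of 0, from 3.48 to 24.3 on the linear scale.

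The endothelial signal was uneven between cells and depended on doublet removal. Cells with at least 10 class II UMIs numbered 6 in diabetic exercise, 19 in diabetic sedentary and 0 in none, and the top 5 cells held 39.9%, 19.7% and 64.0% of the UMIs. With doublets kept, diabetic sedentary over none turned to 0.634 (0.545 to 0.740), and the 34 barcodes of none that this adds held 198 class II UMIs, 117 of them in 1 barcode, beside 25 in its 124 other barcodes. Those 34 barcodes also held 144 UMIs of 21 leukocyte markers. Among all endothelial-like barcodes without a leukocyte marker UMI, doublets included, plain levels were 284, 338 and 70.0 CPM. In kept cells 13, 11 and 9 of the 21 markers had a UMI, with summed levels of 90.2 CPM in diabetic exercise, 41.7 in diabetic sedentary and 39.2 in none, and Ptprc, Cd79a, Cd79b, Ms4a1, Cd3d, Cd3e, Cd3g and Flt3 were at 0 in each library. Acinar markers held 38.3%, 36.5% and 52.6% of the UMIs of these cells, and their part in the ratio was not tested beyond the subtraction given next. Kept cells without any leukocyte marker UMI had 298, 394 and 64.9 CPM on plain totals. The ratio of diabetic sedentary over none was 10.4 after thinning, 8.14 with acinar RNA subtracted and 10.5 without the top 5 cells. At a finer clustering, endothelial-like cells split into clusters 18 and 25. Cluster 18, led by capillary genes such as Gpihbp1 and Plvap, had 140, 338 and 56.0 CPM in 156, 425 and 94 cells. Cluster 25, with Vwf, Ccl21a and Glycam1 among its leading genes, had 462, 509 and 62.4 CPM in 230, 123 and 30 cells. Glycam1 had 0, 0 and 871 UMIs outside acinar clusters, so cluster 25 of none and of the diabetic libraries may hold unlike cells. The make-up of the class thus differed between libraries, and its part in the ratios of the whole class was not tested.

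Class II UMIs were also found in cells that should lack the genes, and free RNA and remaining doublets were not measured there. After thinning to 1000 UMIs, summed class II was seen in 15.8% of endothelial-like cells in diabetic exercise, 17.2% in diabetic sedentary and 3.39% in none. Unthinned shares were 22.1%, 27.9% and 11.3%, at median depths of 1947, 2497 and 2800 UMIs. Acinar-like cells, which should lack the genes, gave thinned shares of 2.50%, 1.46% and 6.94% (median depths 2593, 6748 and 4706), and acinar-RNA-rich cells 6.14%, 4.01% and 7.11% (1929, 4272 and 2301). The share in endothelial-like cells of none is below both shares of its library and is not read as expression. T or NK-like cells gave 9.38%, 19.0% and 5.88% (median depths 2306, 3345 and 3320). The diabetic sedentary value rests on 4 of 21 T or NK-like cells, where 25 of 29 unthinned class II UMIs lay in 2 cells, and it is not below the endothelial share.

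Ductal-like cells, the epithelium that drains the acini, had low levels, higher in the diabetic exercise library than in the diabetic sedentary library. Acinar-like cells, which should lack the genes, differed in the same direction. On plain totals ductal-like cells had 104, 52.7 and 49.2 CPM in diabetic exercise, diabetic sedentary and none, acinar-like cells 29.3, 14.7 and 51.9 CPM, and acinar-RNA-rich cells 66.03, 31.6 and 68.7 CPM. The ductal difference is thus not shown to be particular to ductal-like cells, and the ductal level of none lies below both acinar levels of that library. Summed class II was 91.6 CPM from 586 UMIs in 1202 cells of diabetic exercise, 51.5 CPM from 298 UMIs in 784 cells of diabetic sedentary and 57.3 CPM from 70 UMIs in 204 cells of none. Diabetic exercise over diabetic sedentary was 1.78 (1.54 to 2.05). Cd74 had 365, 187 and 28 UMIs, or 57.0, 32.3 and 22.9 CPM, with a ratio of 1.76 (1.48 to 2.12) for diabetic exercise over diabetic sedentary. H2-Ab1 had 79, 38 and 13 UMIs (1.88, 1.26 to 2.85), H2-Eb1 46, 10 and 11 (4.16, 2.07 to 9.24) and H2-Aa 58, 45 and 10 (1.17, 0.776 to 1.76). H2-Ea-ps had 27, 12 and 9 UMIs, H2-DMa 22, 14 and 6, and H2-DMb1 9, 4 and 2. Ciita had 7 UMIs in diabetic exercise and 0 in the other two libraries. The exact interval of its ratio begins at 1.30 against diabetic sedentary and at 0.275 against none. In diabetic exercise over diabetic sedentary all 6 measured members were higher, where 47.3% of all genes were higher. Of the 6 members 1, H2-Eb1, passed 2-fold with a prior count of 0.5, with 0 lower by 2-fold. All genes gave 3.42% higher and 1.38% lower by 2-fold. The median log2 ratio was 0.86 over the members and -0.02 over all genes.

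Set against none, the ductal level of diabetic sedentary had an interval that spans 1. Its ratio was 0.898 (0.690 to 1.18) for summed class II, 1.41 (0.944 to 2.18) for Cd74 and 0.192 (0.0730 to 0.497) for H2-Eb1, and the summed ratio came to 1.07 on plain totals and 1.47 (1.04 to 2.12) with acinar RNA subtracted. Of the 6 measured members 3 were 2-fold lower and 0 higher, where all genes gave 3.36% lower and 6.39% higher. The median log2 ratio was -0.91 over the members and 0.03 over all genes. The 2 ductal clusters differed, with 147 and 95.2 CPM in 330 and 194 cells of cluster 15 (Onecut2, Tspan8) in diabetic exercise and diabetic sedentary, against 74.1 and 38.0 CPM in cluster 6 (Spp1, Ambp). Most of cluster 15's sum was Cd74, at 110 and 70.3 CPM, against 32.8 and 20.2 in cluster 6. The chain genes did not all follow. In diabetic exercise H2-Aa (6.45 against 13.1 CPM), H2-Eb1 (4.73 against 10.6) and H2-Ea-ps (2.58 against 6.38) were lower in cluster 15. H2-Ab1 was higher there (18.5 against 10.9). None had 1 cell in cluster 15, without a class II UMI, and 49.3 CPM in cluster 6. In cells without leukocyte marker UMIs, the plain levels were 100 CPM in diabetic exercise, 46.2 in diabetic sedentary and 38.3 in none, while 15, 14 and 14 of the 21 markers had a UMI in the whole class, at 76.2, 63.5 and 46.4 CPM summed. Acinar markers held 21.1%, 24.04% and 36.7% of ductal-like UMIs. Thinned shares of cells were 6.92%, 5.61% and 4.43%, and acinar-RNA-rich cells had 6.14%, 4.01% and 7.11%. In diabetic exercise these intervals overlap (5.42% to 8.70% for ductal-like cells, 5.70% to 6.61% for acinar-RNA-rich cells). The share of none lies below those of its acinar-like and acinar-RNA-rich cells, so no ductal expression is read from it.

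Genes upstream and downstream of the members were counted by list. Of 9 interferon gamma signalling genes, 8 were measured in endothelial-like cells and 8 of 8 were lower in diabetic exercise over diabetic sedentary, 1 of them by 2-fold. Of all genes measured there 55.9% were lower, 4.63% by 2-fold, and the median log2 ratio was -0.51 over the list and -0.08 over all genes. Irf1, which acts on the Ciita promoter, was at 0.753 (0.575 to 0.977) and the feedback inhibitor Socs1 at 0.451 (0.219 to 0.855). In diabetic sedentary over none 4 were higher and 4 lower, with Irf1 at 1.23 (0.848 to 1.83). Ductal-like cells of diabetic exercise had less Irf1 (0.543, 0.479 to 0.614) and Socs1 (0.313, 0.172 to 0.544) than those of diabetic sedentary. A link to their class II level was not tested. Of the 7 genes of the list measured there, 3 were higher and 4 lower. In macrophage-like cells 7 were measured, with 0 past 2-fold in either contrast. For diabetic exercise over diabetic sedentary 2 were higher and 5 lower (median log2 ratio -0.22), where 51.1% of all genes were lower. Irf1 was at 0.515 (0.388 to 0.679) and Irf8 at 0.532 (0.409 to 0.688). For diabetic sedentary over none 5 were higher and 2 lower (median 0.11), where 49.2% of all genes were higher. Irf1 was at 1.63 (1.28 to 2.07) and Irf8 at 1.66 (1.32 to 2.09). These 2 genes do not stand for the list.

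Of 11 loading and costimulation genes, 10 were measured in macrophage-like cells for diabetic sedentary over none, 5 higher and 5 lower with 0 past 2-fold. The median log2 ratio was 0.03 over the list, and 49.2% of all genes measured there were higher. Examples from the 5 higher genes are the lysosomal proteases Ctsl and Lgmn, which trim the invariant chain and antigens, at 1.84 (1.51 to 2.25) and 1.34 (1.17 to 1.53). Another is March1, which marks surface class II for turnover, at 1.53 (1.07 to 2.20). As many genes of the list were lower, so these examples do not stand for it. For diabetic exercise over diabetic sedentary 2 of 8 were higher and 6 lower, with 0 past 2-fold, where 51.1% of all genes were lower. In endothelial-like cells 3 genes of the list were measured. For diabetic exercise over diabetic sedentary 1 was higher, by 2-fold, and 2 were lower, where 55.9% of all genes were lower and 4.07% were 2-fold higher. For diabetic sedentary over none 2 were higher, 1 by 2-fold, and 1 was 2-fold lower. All genes there gave 53.9% higher, 9.97% by 2-fold, and 4.47% lower by 2-fold. Ctsl was at 0.581 (0.50 to 0.67) for diabetic exercise over diabetic sedentary and 1.37 (1.12 to 1.68) for diabetic sedentary over none. It does not stand for the list. The enhanceosome genes encode the X and Y box binding proteins. Of these, 5 of 7 were measured in macrophage-like cells for diabetic sedentary over none, 2 higher and 3 lower. For diabetic exercise over diabetic sedentary, 7 of 7 were measured in ductal-like cells, 4 higher and 3 lower, where 47.3% of all genes were higher. In that contrast macrophage-like cells had 3 higher and 2 lower, 1 of these by 2-fold, where 3.61% of all genes were 2-fold lower. Endothelial-like cells had 5 higher, 2 by 2-fold, and 2 lower, where 44.1% of all genes were higher, 4.07% by 2-fold.

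Over 24 sums of a class in a library with at least 50 cells, the pattern of summed class II was most like that of H2-Ea-ps (Pearson r = 0.988 of log2 CPM with 10 CPM added), followed by Dok3 (0.970), Syk (0.957), Cd83, Ncf1, Cd86, Ly86, March1, H2-DMb2 and Lyl1 (0.941). For H2-Ea-ps the order was H2-Aa (0.996), H2-Eb1 (0.993), Cd74 (0.985), H2-Ab1, Dok3, H2-DMa, Ly86, Cd86, H2-DMb1 and Ncf1 (0.968). These sums share libraries and depth, so the values describe likeness across classes and carry no test.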

How the data were processed

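Single-cell libraries of dissociated pancreas were built with the 10x Chromium 3-prime kit, version 3, per the labels' protocols. The authors deposited UMI counts per gene and barcode, un-normalized, made with Cell Ranger, version 7.1.0 per the submitters' processing notes and 6.1.2 per the file headers. No source used here names the genome build. The members, lists and tests were chosen with earlier results of these data known. Barcodes needed at least 500 UMIs, 200 genes and at most 20% mitochondrial UMIs. Scrublet's automatic threshold marked 0% of barcodes, so the top 5% by score were removed. Kept cells of the 3 libraries were clustered without integration and without 11 class II genes (log values of counts scaled to 10000 UMIs, 30 principal components of 2000 variable genes, 15 neighbours, Leiden resolution 1, seed 1). To be named, a cluster needed 2 or more markers of 1 class within its top 10 genes, outnumbering those of the other classes, and 3 or more detected. Clusters with a median above 50% acinar marker UMIs and no name were called acinar-RNA-rich. UMIs were summed per class and library and given as CPM on TMM-scaled totals (edgeR 4.0.16), or on plain totals for B-like and T or NK-like cells, clusters and gates. Ratios carry exact conditional Poisson intervals and shares exact (Clopper-Pearson) intervals, at 95%. A gene was measured with at least 20 UMIs over both libraries and called at 2-fold, with a prior count of 0.5 in log2 values. PCR was collapsed by UMI, and intervals and floors (3 counts for a count of 0) cover counting error only.

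The ratio and median code was tested on simulated counts. Named genes were the 8 members, the pathway lists, the 10 genes most alike in pattern, the on and off genes on chromosome 17 with the 5 highest of each direction, Nnt and Glo1. The dendritic gate and the sums without the top 5 cells were added after the data were seen. Tools were Python 3.11.15, scanpy 1.11.5, anndata 0.12.19, leidenalg 0.10.2, igraph 0.11.9, pandas 2.3.3, scipy 1.17.1, numpy 2.4.6, matplotlib 3.10.9, scikit-learn 1.9.0 and R 4.3.3. Promoter windows came from RefSeq (GRCm38.p6) and gene positions and the exon from GENCODE M21 (GRCm38). One gene of the interferon gamma signalling list enters its counts, but its values are not reported here.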

Additional observations from a re-analysis of the deposited data

Results flagged for a closer look

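Summed class II was higher in diabetic sedentary than in none in endothelial-like cells and, on TMM-scaled totals, lower in macrophage-like cells. The log2 ratios of diabetic sedentary over none differ by 2.60, endothelial minus macrophage. The genes were chosen by the endothelial side of this difference, so it is a description only. On plain totals macrophage-like cells were also higher in diabetic sedentary, and with doublets kept the ratios were 0.634 in endothelial-like and 0.801 in macrophage-like cells, so the difference turned direction. For diabetic exercise over diabetic sedentary, ductal-like cells were higher while endothelial-like and macrophage-like cells were lower, so that the log2 ratios differ by 1.19, ductal minus endothelial, and by 0.92, ductal minus macrophage. The rise was not found in ductal-like cells alone. On plain totals diabetic exercise was also above diabetic sedentary in acinar-like (29.3 and 14.7 CPM), acinar-RNA-rich (66.03 and 31.6 CPM) and fibroblast-like cells (79.03 and 23.01 CPM). The fibroblast-like level of diabetic exercise rests largely on 1 of 332 cells, which held 52 of its 84 class II UMIs (61.9%). These differences between cell classes were not tested, since each group is 1 library.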

How the results depend on the processing

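Of 80 alternatives, 57 stayed within the counting interval of the reported value, 21 moved beyond it and 2 turned the direction of a value whose interval excluded 1, and the cause was not tested. The turned ones are diabetic sedentary over none in macrophage-like cells on plain totals (1.06) and in endothelial-like cells with doublets kept (0.634). In macrophage-like cells, diabetic sedentary over none moved to 0.807 at clustering resolution 0.5, 0.801 with doublets kept, 0.851 at a mitochondrial ceiling of 10%, 0.762 thinned, 0.873 on totals without acinar marker UMIs and 0.789 without the top 5 cells. Diabetic exercise over diabetic sedentary there moved to 0.992 with doublets kept, 0.960 at that ceiling, 0.993 thinned and 0.992 on plain totals. In endothelial-like cells, diabetic sedentary over none moved to 10.4 thinned, 8.14 with acinar RNA subtracted and 10.5 without the top 5 cells, and diabetic exercise over diabetic sedentary to 0.670 thinned and 0.590 without the top 5 cells. In ductal-like cells, diabetic sedentary over none, whose interval spans 1 at 0.898, crossed to 1.07 on plain totals, 1.08 thinned, 1.03 in cells without leukocyte marker UMIs and 1.47 (1.04 to 2.12) with acinar RNA subtracted, and diabetic exercise over diabetic sedentary to 1.45 at resolution 2 and 2.12 without the top 5 cells. Thinning moved H2-Ea-ps per 100 H2-Eb1 UMIs to 97.5 in diabetic exercise, 113 in diabetic sedentary (101 to 127) and 119 in none (110 to 129). The last 2 intervals overlap, unlike those of the unthinned values. Without a filter on low counts the list medians kept their signs, and with members at 0 in 1 library placed at their bound the endothelial median of diabetic exercise over diabetic sedentary was -0.20. Leaving out a replicate could not be done with 1 library per group. No paired analysis was possible because each group has 1 library and no test was run. Depth limits Ciita and H2-DMb1 outside macrophage-like and B-like cells, where they had at most 9 UMIs in each endothelial-like or ductal-like sum.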

Other observations

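Class II was also uneven in 2 classes not compared above. Fibroblast-like cells had 84 summed class II UMIs in diabetic exercise, 49 in diabetic sedentary and 217 in none, or 66.9, 22.6 and 229 CPM. In none, 77.0% of those UMIs lay in 4 cells with at least 10 each, and in diabetic exercise 61.9% lay in 1 cell. Fibroblast-like cells without a leukocyte marker UMI stood at 28.0, 19.7 and 36.9 CPM on plain totals. Mesothelial-like cells, the lining of the organ's surface, had 13, 14 and 78 UMIs in 15, 10 and 38 cells, or 216, 298 and 382 CPM.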
